A study of Mus musculus with 6 samples.

Results

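The 34 mouse genes described here encode glucose and lactate transporters, the enzymes of glycolysis, regulators of glycolytic flux, and sensors and targets of the hypoxia response. They were listed by gene name, with earlier results of these data known. All 34 were found among the 55385 mouse genes of the deposited count table, and all 34 were among the 18504 genes that passed the filter on low counts. The 6 RNA libraries are all labelled PDVC57, a mouse line of transformed keratinocytes that grows as squamous cell carcinoma. By their labels, 3 are Sox2 KO (knockout) and 3 are Sox2 overexpression, and the series text describes cancer cells low or high in Sox2 that were taken from grafted tumours. By these labels every library comes from the same line, with Sox2 altered in one direction or the other. No unmodified PDVC57 library was analysed here, and the part of host cells in the RNA was not tested. Sox2 is a transcription factor of stem and progenitor cells. The labels give no host strain or age, no time after grafting, no vector or promoter, and no number of clones. Since they do not say whether the replicates came from separate tumours or cultures, the p-values measure only the spread between these samples, which may be technical.

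Glycolysis splits glucose into pyruvate in the cytosol, and lactate dehydrogenase turns pyruvate into lactate, which leaves the cell through monocarboxylate transporters. Many of the enzymes exist as related genes (paralogs) with different tissue patterns, such as enolase 1, found in most cells, and enolase 2, best known from neurons. When oxygen is low, prolyl hydroxylases stop marking the HIF alpha subunits for destruction, and HIF then binds a short DNA motif near genes for glycolysis, mitophagy, pH control and vessel growth. HIF protein is set largely by its stability, so the mRNA of a HIF subunit is not a measure of HIF activity.

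Library totals ran from 31247976 to 38543221 counts. Sox2 itself had 49, 34 and 25 counts in the knockout libraries and 2566, 3790 and 4095 in the overexpression libraries, which did not overlap. The 27 epithelial markers summed to 7889 to 12447 CPM (a gene's counts relative to the library's total, with totals adjusted by edgeR's TMM method) in the knockout libraries and to 20429 to 26339 CPM in the overexpression libraries, and 20 of the 27 rose. Krt5 and Krt14, which mark basal keratinocytes, were not among the 20 (adjusted p = 0.0584 and 0.251). All 10 fibroblast markers fell (median -7.65 in log2), from a summed 53172 to 81041 CPM to 246 to 388 CPM. The collagen genes Col1a1, Col1a2 and Col3a1 alone held 5.29 to 7.47% of the counts of a knockout library and 0.0249 to 0.0385% of those of an overexpression library. Of the endothelial markers 6 of 7 tested fell (33.6 to 121.6 CPM summed against 12.7 to 20.05 CPM), as did 3 of 7 white blood cell markers (23.2 to 120.3 against 14.97 to 33.5 CPM), and knockout replicate 3 was the highest library for both lists. Of the other marker lists, 4 of 5 tested genes of skeletal muscle and 1 of 5 of Schwann and neural cells fell. Of red blood cells 2 of 3 rose, at low levels (0.41 to 0.63 against 1.37 to 5.34 CPM summed over the list). For all these marker lists, the shares over all tested genes were 13.6% higher and 18.0% lower. In bulk RNA, fewer cells of a type and less RNA per cell cannot be told apart. All comparisons that follow are between the same groups of libraries, so these marker differences lie beside each of them, and their part in the results was not tested.

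**Figure D1:**
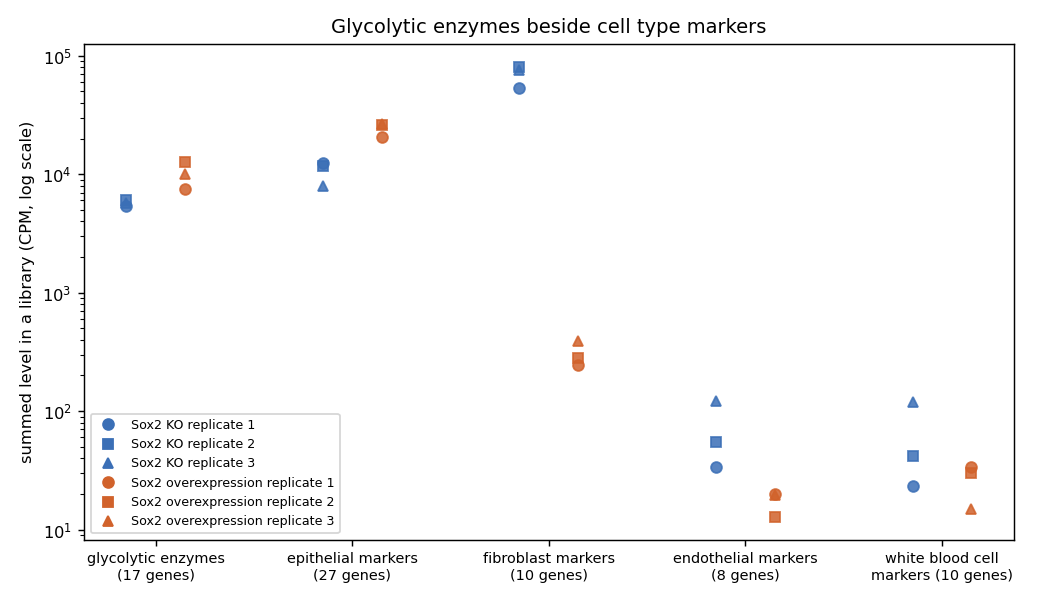
Summed level per library (CPM, log axis) of 17 glycolytic enzymes and lactate dehydrogenases beside lists of cell type markers. Each point is 1 library, blue for knockout and orange for overexpression, with a marker shape for each replicate. The glycolytic sum was 5397 to 6003 CPM in the knockout libraries and 7477 to 12734 CPM in the overexpression libraries, the epithelial sum was also higher with overexpression, and the fibroblast sum was higher in every knockout library.

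Because the libraries differ in the share of their counts taken by fibroblast markers, each result was computed on a second scale that sets the epithelial markers level between libraries by their median ratio. The first scale, TMM over the tested genes, is called the scale of all RNA below, and the second the epithelial scale. On the second, a rise is relative to the middle of the 27 markers and not to all epithelial mRNA. The markers' own log2 fold changes on the first scale ran from 0.15 (Itga6) to 3.42 (Krt6a). Whether they changed with Sox2 within epithelial cells was not tested. The second scale shifted the median over tested genes from -0.02 to -1.22 in log2. With it, 1.77% of all tested genes were called higher and 75.6% lower. Ratios between genes within a library are the same on both scales.

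On the scale of all RNA, 16 of the 34 genes rose with Sox2 overexpression, 6 fell and 12 did not pass the test. The test was edgeR's quasi-likelihood test with the Benjamini-Hochberg adjustment over all tested genes and a threshold of 0.05, and fold changes are overexpression over knockout. Among all tested genes, 13.6% rose and 18.0% fell. The median log2 fold change of the 34 genes was 0.44, beside -0.02 for all tested genes. On the epithelial scale 1 of the 34 genes was higher (Aldoc), 17 were lower and 16 did not pass, with a median of -0.75 beside -1.22 for all tested genes. The gap between the median of these genes and that of all tested genes was therefore 0.45 on one scale and 0.47 on the other. The 6 genes that fell were also called lower on the epithelial scale. That scale lowers all log2 fold changes by about the same amount, so neither the similar gap nor these 6 calls are independent support. The groups of libraries did not overlap for 25 of the 34 genes, with overexpression above every knockout library for 17 and below for 8, while 50.9% of all tested genes showed no overlap, 24.4% with overexpression above and 26.5% with knockout above. Of the 16 genes that rose, overexpression replicate 1 was the lowest of its group for 15, and of the 6 that fell, knockout replicate 1 was the lowest of its group for all 6.

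**Figure D2:**
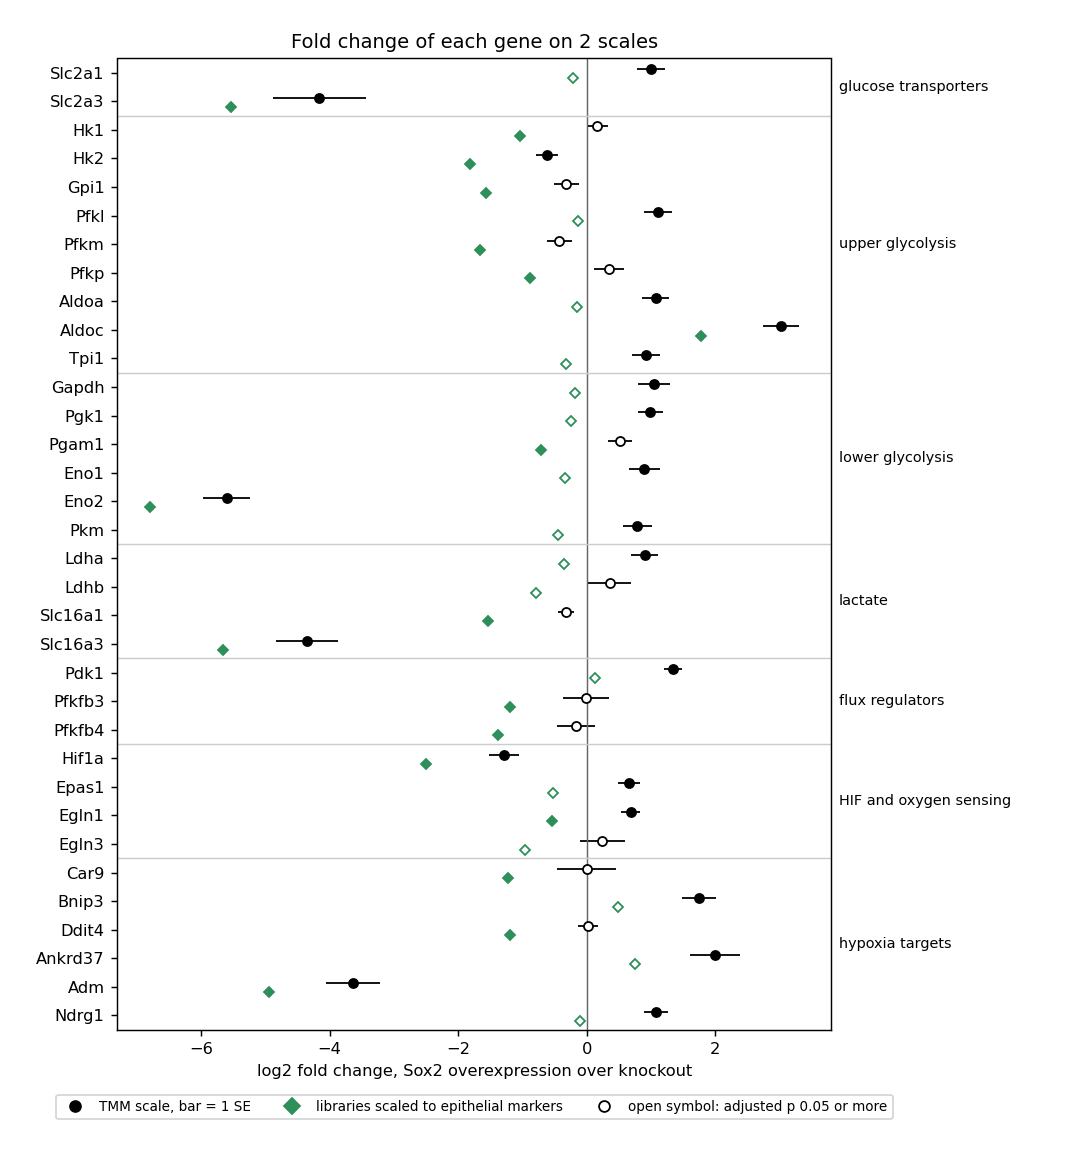
Log2 fold change of each of the 34 genes, overexpression over knockout, with its standard error as a bar, ordered by role. The genes that passed the test ran from -5.60 for Eno2 to 3.03 for Aldoc on the scale of all RNA, and on the epithelial scale, drawn as a second marker, all values lie lower and most of the rises turn to values below 0.

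HIF binds DNA through the core ACGTG or GCGTG. The 6 promoters shown are those of the 4 largest rises and of the 2 largest falls among genes with the core in the 250 bases before the start; Eno2, which fell most, had none there. RefSeq promoters on GRCm38.p6 were matched for 31 of the 34 genes, and Slc2a3, Epas1 and Ndrg1 had no entry. Of several RefSeq starts the one nearest the annotated 5′ end was taken, and it can lie inside the annotated gene. Each line gives the 160 bases before the RefSeq start, 5′ to 3′ on the gene's strand, and capitals mark the core motif on either strand. The first 4 genes rose with overexpression on the scale of all RNA, and the last pair fell.
Aldoc, chr11:78322913-78323072, plus strand: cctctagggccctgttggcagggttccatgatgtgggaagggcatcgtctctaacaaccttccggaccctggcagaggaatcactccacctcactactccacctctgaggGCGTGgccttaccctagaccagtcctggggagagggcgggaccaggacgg
Pdk1, chr2:71873064-71873223, plus strand: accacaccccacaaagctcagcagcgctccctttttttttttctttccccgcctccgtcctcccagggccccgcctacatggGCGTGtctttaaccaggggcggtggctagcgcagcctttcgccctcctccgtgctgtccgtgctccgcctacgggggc
Bnip3, chr7:138909507-138909666, minus strand: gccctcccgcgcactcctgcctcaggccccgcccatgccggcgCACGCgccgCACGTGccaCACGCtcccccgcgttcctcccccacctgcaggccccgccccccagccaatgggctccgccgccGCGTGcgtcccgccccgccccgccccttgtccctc
Ankrd37, chr8:45999851-46000010, minus strand: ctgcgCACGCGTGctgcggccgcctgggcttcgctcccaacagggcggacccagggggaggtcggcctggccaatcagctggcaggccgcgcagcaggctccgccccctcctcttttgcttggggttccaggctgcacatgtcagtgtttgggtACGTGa
Slc16a3, chr11:120948907-120949066, plus strand: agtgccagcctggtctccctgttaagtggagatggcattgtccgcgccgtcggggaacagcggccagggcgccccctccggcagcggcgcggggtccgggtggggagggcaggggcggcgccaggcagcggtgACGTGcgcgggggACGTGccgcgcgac
Adm, chr7:110627497-110627656, plus strand: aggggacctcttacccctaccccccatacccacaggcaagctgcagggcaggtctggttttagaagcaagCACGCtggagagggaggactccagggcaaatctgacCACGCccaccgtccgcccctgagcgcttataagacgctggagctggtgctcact

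The stretch shown held 1 motif for Aldoc, 1 for Pdk1, 5 for Bnip3, 3 for Ankrd37, 2 for Slc16a3 and 2 for Adm, where CACGTG reads as ACGTG on both strands and counts once for each. Genes that rose and genes that fell thus both carry the letters. In the 250 bases before the start, 25 of the 31 genes had at least 1 motif, namely 11 of 14 that rose, 4 of 5 that fell and 10 of 12 that did not pass. Counting each start of a gene, the share was 81.8% of 44 promoters of these genes, 51.8% of the 15588 promoters of tested genes and 38.6% of all 32851 RefSeq promoters of the same length. A match of so short a motif is a description of sequence and not a measurement of binding.

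Glucose enters cells through facilitative transporters. Of the 2 members, Slc2a1 rose and Slc2a3 fell on the scale of all RNA, while on the epithelial scale Slc2a1 did not pass and Slc2a3 was again lower. Slc2a1 (GLUT1, the widespread transporter and a known HIF target) lay on chromosome 4 from 119108711 to 119137983 on the plus strand, ENSMUSG00000028645, in the GRCm38 (mm10) build used for all positions here. Its level was 125, 143 and 109 CPM in knockout replicates 1, 2 and 3 and 175, 283 and 294 CPM in overexpression replicates 1, 2 and 3. Every overexpression library was above every knockout library, with replicate 1 the lowest of its group. The log2 fold change was 0.997 ± 0.22 (standard error; edgeR adjusted p = 0.00901) on the scale of all RNA and -0.22 (adjusted p = 0.36) on the epithelial scale. Slc2a3 (GLUT3, a high-affinity transporter best known from neurons and also found in white blood cells; chromosome 6 from 122727809 to 122801640 on the minus strand, ENSMUSG00000003153) had 3.75, 6.22 and 14.7 CPM in the knockout libraries and 0.0915, 0.643 and 0.632 CPM in the overexpression libraries. The knockout libraries spread widely, with replicate 3 above the sum of the other two, and all of them were above the overexpression libraries. Slc2a3 fell by 4.16 ± 0.72 on the log2 scale (edgeR adjusted p = 0.00262), and without knockout replicate 3 the knockout mean dropped from 8.23 to 4.98 CPM and the log2 fold change was -3.43. That library was also the highest in the white blood cell and endothelial sums, and the part of such cells in the level of Slc2a3 was not tested.

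The upper part of glycolysis, from hexokinase to triose phosphate isomerase, had 4 of 9 genes higher and 1 lower on the scale of all RNA, against 1 higher and 5 lower on the epithelial scale. For this list and the member lists that follow, the shares over all tested genes were 13.6% higher and 18.0% lower. On the epithelial scale they were 1.77% higher and 75.6% lower. Hexokinases trap glucose by phosphorylation. Hk2, the inducible hexokinase of muscle and many tumours, had 122, 173 and 135 CPM in the knockout libraries and 96.7, 86.8 and 96.3 CPM in the overexpression libraries, with no overlap. In log2 the change was -0.62 ± 0.17 (edgeR adjusted p = 0.022), and the call was lost without knockout replicate 2 (adjusted p = 0.0995) and without overexpression replicate 3 (0.0647), with 5.52e-05 to 0.0995 over all alternatives, whichever the direction. Hk1, the housekeeping hexokinase, overlapped between groups at 190.0, 192 and 162 against 174, 233 and 201 CPM (log2 fold change 0.16, adjusted p = 0.477). Gpi1, which isomerises glucose 6-phosphate, also overlapped (log2 fold change -0.32, adjusted p = 0.24).

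Phosphofructokinase commits sugar to glycolysis, and 1 of its 3 genes passed the test. Pfkl, the liver form, had 90.8, 115 and 103 CPM in the knockout libraries and 154, 257 and 253 CPM in the overexpression libraries. All overexpression libraries were higher, replicate 1 by less than the others. The change was 1.11 ± 0.22 in log2 (edgeR adjusted p = 0.00497) and -0.13 on the epithelial scale. Pfkm, the muscle form, was lower in each overexpression library than in each knockout library without passing the test (log2 fold change -0.42, adjusted p = 0.133), and Pfkp, the platelet form, overlapped (0.35, adjusted p = 0.283).

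Aldolase cleaves fructose 1,6-bisphosphate. Aldoa, the main form in most tissues, had 481, 602 and 553 CPM in the knockout libraries and 871, 1371 and 1208 CPM in the overexpression libraries, a log2 fold change of 1.08 ± 0.21 (edgeR adjusted p = 0.00477) that was -0.16 on the epithelial scale. Aldoc, the form best known from brain, lay on chromosome 11 from 78322968 to 78327781 on the plus strand, ENSMUSG00000017390. Aldoc had 4.16, 4.398 and 4.002 CPM in the knockout libraries, which agreed closely, and 21.00, 39.98 and 41.4 CPM in the overexpression libraries. Even the lowest overexpression library was well above the highest knockout library. The group mean rose from 4.19 ± 0.199 to 34.1 ± 11.4 CPM (SD, n = 3 each), which is 3.03 ± 0.28 in log2 (edgeR adjusted p = 6.99e-05). Aldoc was the only one of the 34 genes called higher on both scales, with a log2 fold change of 1.79 on the epithelial scale (adjusted p = 0.000291). Tpi1, which interconverts the triose phosphates, had 269, 316 and 296 CPM against 391, 686 and 593 CPM, without overlap (log2 fold change 0.92 ± 0.22, edgeR adjusted p = 0.0128; -0.32 on the epithelial scale).

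**Figure D3:**
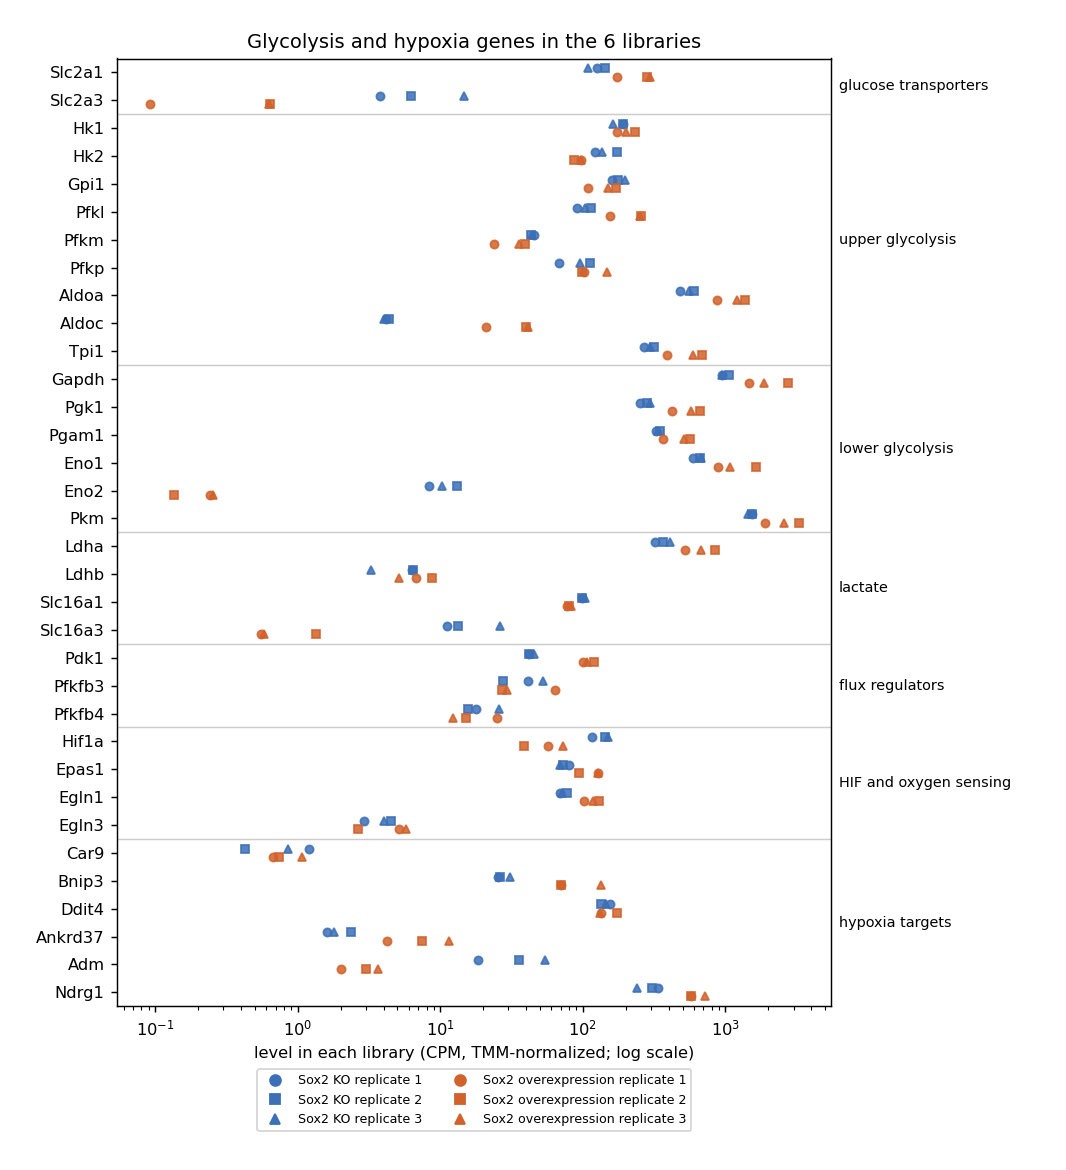
Level of each of the 34 genes in every library (CPM, log axis), grouped by role, with knockout in blue, overexpression in orange and a marker shape for each replicate. Slc2a3, Eno2, Slc16a3 and Adm lie far lower in the overexpression libraries, and Aldoc lies far higher. Most abundant enzymes sit modestly higher, with overexpression replicate 1 closest to the knockout libraries. These levels are on the scale of all RNA, and on the epithelial scale the modest rises of the enzymes lie below 0.

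The payoff phase of glycolysis, from glyceraldehyde 3-phosphate to pyruvate, had 4 of 6 genes higher and 1 lower on the scale of all RNA, and none higher and 2 lower on the epithelial scale. In all 5 genes other than Eno2 every overexpression library was above every knockout library, an order that 24.4% of all tested genes showed. Of all tested genes, 13.6% rose on the scale of all RNA. Gapdh, the dehydrogenase often used as a loading control, had 939, 1056 and 939 CPM in the knockout libraries and 1454, 2745 and 1855 CPM in the overexpression libraries, a range within the group wider than the difference between the group means. Gapdh rose by 1.05 ± 0.25 in log2 (edgeR adjusted p = 0.0121), with -0.18 on the epithelial scale. Gapdh has 76 near-identical copies in the annotation, and these held counts equal to 27.5 to 44.2% of those of Gapdh in a library, so its own count is uncertain. Summed with its copies, the level was 1355 ± 37.7 CPM in the knockout group and 2596 ± 825 CPM in the overexpression group (SD, n = 3 each), a log2 ratio of 0.94. That sum was chosen after the data were seen.

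Pgk1, which makes the first ATP of that phase, had 253, 283 and 296 CPM in the knockout libraries and 419, 663 and 569.8 CPM in the overexpression libraries. Pgk1 rose by 0.99 ± 0.198 in log2 (edgeR adjusted p = 0.00538), with -0.25 on the epithelial scale. Pgam1, phosphoglycerate mutase, had a log2 fold change of 0.52 ± 0.19 that did not pass (adjusted p = 0.0681), although it passed without overexpression replicate 1 (0.0150) and with the Wald test of DESeq2 (0.0332), with 0.0119 to 0.162 over all alternatives, whichever the direction. The 0.0119 is from the epithelial scale, where Pgam1 was called lower (log2 fold change -0.72). Pkm, pyruvate kinase, was the most abundant of the 34 genes in counts, at 1523, 1533 and 1440.4 CPM against 1892, 3279 and 2581 CPM. Its log2 fold change was 0.79 ± 0.23 (edgeR adjusted p = 0.0285), with -0.44 on the epithelial scale. The call was lost without any one of the knockout replicates (adjusted p from 0.0733 to 0.0851, log2 fold change 0.76 to 0.81). It was also lost without overexpression replicate 3 (0.0644). Over all alternatives the adjusted p ran from 0.00203 to 0.0851, whichever the direction.

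Of the 11 pairs of related genes described further on, the enolases differed most in their ratio. Eno1, the form of most tissues, had 590.2, 666 and 674 CPM in the knockout libraries and 879, 1639.7 and 1072 CPM in the overexpression libraries. Its log2 fold change was 0.896 ± 0.24 (edgeR adjusted p = 0.0222), with -0.35 on the epithelial scale. The call was lost without any one of the knockout replicates (0.0506 to 0.0709), with log2 fold changes of 0.85 to 0.94 in those fits. Over all alternatives the adjusted p ran from 0.00144 to 0.222, the latter from the epithelial scale, where the sign is reversed. Eno2 lay on chromosome 6 from 124760053 to 124769673 on the minus strand, ENSMUSG00000004267. Eno2 had 283, 394 and 377 counts in the knockout libraries, or 8.29, 13.03 and 10.3 CPM, and 8, 4 and 10 counts in the overexpression libraries, or 0.244, 0.135 and 0.253 CPM. It was close to the limit of detection in all 3 overexpression libraries and plainly present in all 3 knockout libraries. Eno2 fell by 5.60 ± 0.37 on the log2 scale (edgeR adjusted p = 9.09e-06), the largest change of the 34 genes.

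At the lactate step, 1 of 4 genes rose and 1 fell on the scale of all RNA, and none was higher and 2 were lower on the epithelial scale. Ldha, the dehydrogenase subunit that favours lactate, had 319.7, 367 and 407 CPM in the knockout libraries and 517, 850.0 and 675 CPM in the overexpression libraries, with no overlap. Ldha rose by 0.901 ± 0.21 in log2 (edgeR adjusted p = 0.0122), with -0.35 on the epithelial scale. Ldhb, the subunit that favours pyruvate, overlapped between groups (log2 fold change 0.36, adjusted p = 0.441).

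Lactate leaves cells mainly through the transporters Slc16a1 (MCT1) and Slc16a3 (MCT4), the latter a HIF target of highly glycolytic cells. Slc16a3, on chromosome 11 from 120948480 to 120960868 on the plus strand, ENSMUSG00000025161, had 11.1, 13.2 and 26.2 CPM in the knockout libraries and 0.549, 1.35 and 0.582 CPM in the overexpression libraries. Knockout replicate 3 was the highest, and even the lowest knockout library was far above the overexpression libraries. Slc16a3 fell by 4.36 ± 0.48 on the log2 scale (edgeR adjusted p = 0.000213). Slc16a1 had 98.9, 97.8 and 103 CPM against 77.2, 80.1 and 82.1 CPM, lower in each overexpression library, with a small log2 fold change of -0.32 ± 0.13 that did not pass (adjusted p = 0.0848) but passed with upper-quartile scaling (0.0426) and without overexpression replicate 2 (0.0459), with 0.000131 to 0.297 over all alternatives.

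Of the 3 regulators of flux, Pdk1 alone passed on the scale of all RNA, and none was higher and 2 were lower on the epithelial scale. Pdk1, the kinase that shuts pyruvate dehydrogenase and a known HIF target, lay on chromosome 2 from 71873224 to 71903858 on the plus strand, ENSMUSG00000006494. It had 41.8, 42.2 and 45.1 CPM in the knockout libraries and 101, 119.9 and 107 CPM in the overexpression libraries. Both groups were tight, and overexpression replicate 1 was not apart from the others here. The group mean rose from 43.04 ± 1.79 to 109 ± 9.78 CPM (SD, n = 3 each), or by 1.34 ± 0.14 in log2 (edgeR adjusted p = 0.000137). On the epithelial scale it was 0.12 (adjusted p = 0.629). Pfkfb3 and Pfkfb4, which make and break the activator fructose 2,6-bisphosphate, overlapped between groups. Their log2 fold changes were -0.01 (edgeR adjusted p = 0.986) and -0.17 (adjusted p = 0.684). On the epithelial scale both were called lower, at -1.20 (adjusted p = 0.0208) and -1.38 (adjusted p = 0.00719).

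Among the oxygen sensors and HIF subunits, 2 of 4 genes rose and 1 fell on the scale of all RNA, and none was higher and 2 were lower on the epithelial scale. Hif1a, the subunit found in most cells, lay on chromosome 12 from 73901375 to 73947530 on the plus strand, ENSMUSG00000021109. It had 116, 143 and 149.6 CPM in the knockout libraries and 56.8, 38.6 and 72.3 CPM in the overexpression libraries. The lowest knockout library was above the highest overexpression library by a wide margin. Hif1a fell by 1.28 ± 0.23 on the log2 scale (edgeR adjusted p = 0.00326), and its value was -2.51 on the epithelial scale.

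Epas1 encodes HIF2 alpha, the subunit best known from endothelium (chromosome 17 from 86753700 to 86833410 on the plus strand, ENSMUSG00000024140). It had 80.1, 72.1 and 68.96 CPM in the knockout libraries and 127, 93.5 and 129 CPM in the overexpression libraries, with overexpression replicate 2 nearest to the knockout group. Its log2 fold change was 0.66 ± 0.17 (edgeR adjusted p = 0.0168) and -0.53 on the epithelial scale. The call was lost without knockout replicate 2 (0.0670) or 3 (0.0671), or overexpression replicate 3 (0.0588). Over all alternatives the adjusted p ran from 0.00296 to 0.0671, whichever the direction. Most endothelial markers fell, as given above, and their part in the level of Epas1 was not tested. Egln1 (PHD2, the main prolyl hydroxylase) had 68.6, 77.3 and 71.8 CPM against 101, 130.1 and 119 CPM, without overlap (log2 fold change 0.69 ± 0.15, edgeR adjusted p = 0.00799; -0.53, adjusted p = 0.041, on the epithelial scale, where it was lower). Egln3 (PHD3, itself induced by hypoxia) did not pass (log2 fold change 0.24, adjusted p = 0.627).

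The 6 remaining hypoxia targets split, with 3 higher, 1 lower and 2 not past the test on the scale of all RNA, and none higher and 3 lower on the epithelial scale. Bnip3, a mitophagy receptor on the mitochondrial surface, lay on chromosome 7 from 138890836 to 138909519 on the minus strand, ENSMUSG00000078566. It had 25.3, 26.02 and 30.6 CPM in the knockout libraries and 70.00, 70.5 and 134 CPM in the overexpression libraries. Overexpression replicate 3 was the highest, and all 3 were above the knockout group. Bnip3 had a log2 fold change of 1.75 ± 0.27 (edgeR adjusted p = 0.00128) and 0.49 on the epithelial scale (adjusted p = 0.131). Ankrd37, a small ankyrin-repeat protein induced by HIF1, had 1.61, 2.38 and 1.81 CPM against 4.24, 7.44 and 11.4 CPM, low levels with no overlap. Its log2 fold change was 1.995 ± 0.39 (edgeR adjusted p = 0.00486) and 0.75 on the epithelial scale (adjusted p = 0.11).

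Ndrg1, a differentiation- and stress-responsive gene, was the most abundant of the hypoxia targets, at 335, 307 and 241 CPM in the knockout libraries and 572, 573 and 720.1 CPM in the overexpression libraries. Its log2 fold change was 1.08 ± 0.19 (edgeR adjusted p = 0.0026), with -0.11 on the epithelial scale. Adm, which encodes the vasodilator peptide adrenomedullin, lay on chromosome 7 from 110627661 to 110629820 on the plus strand, ENSMUSG00000030790. Adm had 18.3, 35.6 and 54.5 CPM in the knockout libraries and 2.01, 3.01 and 3.67 CPM in the overexpression libraries. The knockout libraries differed among themselves, and each was above all overexpression libraries. Adm fell by 3.64 ± 0.42 on the log2 scale (edgeR adjusted p = 0.000257). Car9, the membrane carbonic anhydrase often used as a marker of hypoxia, was barely detected in either group, with 41, 13 and 31 counts in the knockout libraries and 22, 22 and 42 in the overexpression libraries (log2 fold change -0.002, adjusted p = 0.998). Ddit4 (REDD1, an inhibitor of mTOR signalling) was well expressed and overlapped (log2 fold change 0.02, adjusted p = 0.938).

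Pairs of related genes were also compared within each library, as the log2 ratio of their counts with 0.5 added to each, since such a ratio does not depend on how libraries are scaled. For 7 of 11 pairs the groups did not overlap, as for the levels of 50.9% of single genes, and the share among other pairs of genes was not computed. With 3 libraries against 3 the exact two-sided permutation test cannot go below p = 0.1, the value these 7 pairs reached (0.157 adjusted over the 11 pairs), so none could pass the threshold. The ratio of Eno1 to Eno2 was 6.15, 5.67 and 6.02 in the knockout libraries and 11.73, 13.39 and 11.98 in the overexpression libraries, a difference in log2 ratio of 6.42 that became 5.73 with 5 counts added. The ratio of Slc2a1 to Slc2a3 differed by 5.27 and that of Slc16a1 to Slc16a3 by 4.02, both toward the first gene with overexpression.

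The ratio of Hif1a to Epas1 was 0.53, 0.99 and 1.12 in the knockout libraries and -1.16, -1.28 and -0.83 in the overexpression libraries, so Hif1a had more counts in each knockout library and Epas1 in each overexpression library. Per kilobase of the main transcript, Epas1 made up 28.3 to 37.2% of both subunits in the knockout libraries and 60.4 to 67.5% in the overexpression libraries. Aldoc, although it rose strongly, remained a small part of aldolase, at 0.391 to 0.467% of Aldoa and Aldoc per kilobase in the knockout libraries and 1.29 to 1.82% in the overexpression libraries. Slc16a3 went from 10.3 to 20.6% of both lactate transporters per kilobase to 0.718 to 1.695%. The ratio of Hk2 to Hk1 differed by -0.76 and that of Pfkl to Pfkp by 0.72, again without overlap. The 4 pairs that overlapped were Pfkm with Pfkp (difference -0.81, exact p = 0.2), Ldha with Ldhb (0.49, 0.3), Pfkfb3 with Pfkfb4 (0.13, 0.5) and Egln1 with Egln3 (0.49, 0.4).

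**Figure D4:**
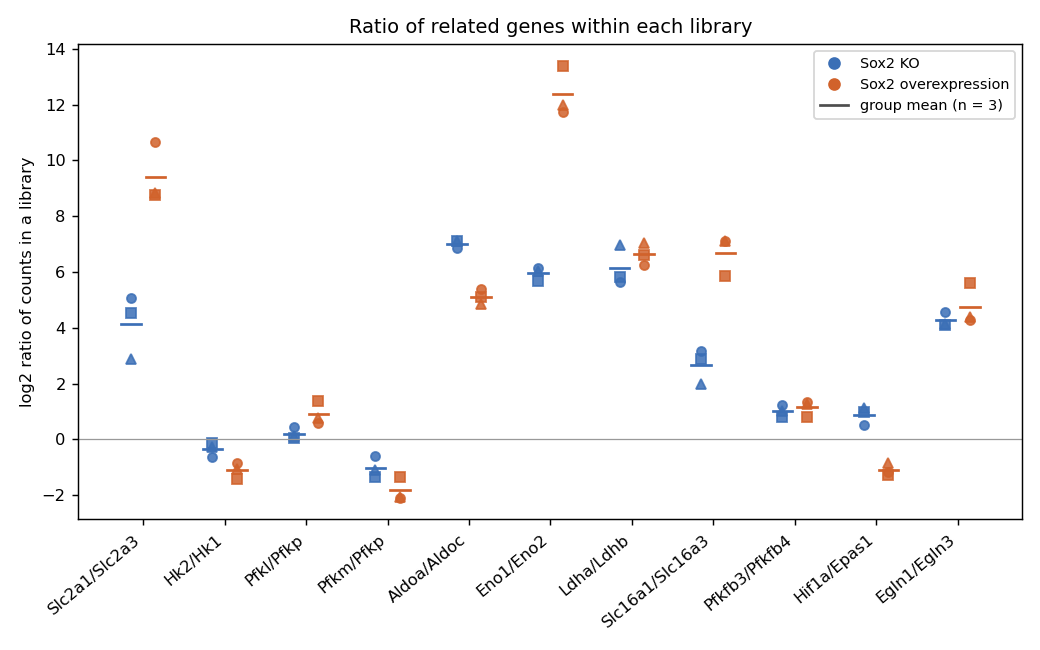
Log2 ratio of the counts of 2 related genes in each library, for 11 pairs, with knockout in blue, overexpression in orange, a marker shape for each replicate and a line at the group mean. The groups are far apart for Eno1 over Eno2 and Slc2a1 over Slc2a3, and Hif1a over Epas1 changes sign, from a mean of 0.88 to -1.09.

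Per kilobase of the main transcript, the order of the most abundant genes was the same in both groups, namely Gapdh, Pkm, Aldoa, Eno1 and Ldha. Their levels were 689 ± 47.3, 616 ± 20.9, 361 ± 40.4, 317 ± 22.8 and 206 ± 24.8 CPM per kilobase in the knockout group and 1421 ± 465, 1062 ± 285, 761 ± 169, 591 ± 195 and 385 ± 94.4 in the overexpression group (SD, n = 3). Within the overexpression group, neighbours in that order differed by less than the sum of their SDs. The summed level of 17 glycolytic enzymes and lactate dehydrogenases was 5700 ± 303 CPM in the knockout group and 10071 ± 2630 CPM in the overexpression group (SD, n = 3). Divided by the summed epithelial level of the same library, the sum was 0.434, 0.513 and 0.723 in the knockout libraries and 0.366, 0.490 and 0.380 in the overexpression libraries, which overlapped.

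Beyond the 34 genes, 100 other genes of the same pathways were listed, of which 91 were tested. Of these, 17 rose, 21 fell and 53 did not pass on the scale of all RNA, where 13.6% of all tested genes rose and 18.0% fell. On the epithelial scale 1 was higher and 77 were lower, where 1.77% of all tested genes were higher and 75.6% lower. The counts over all these lists thus lie near those over all tested genes. The count of rises was 9 without knockout replicate 1 and 8 without knockout replicate 2. Over all tested genes the rises also dropped in those fits, from 2519 to 1774 and 1446. The pentose phosphate pathway, which branches from glucose 6-phosphate to make NADPH and ribose, had 4 of 7 genes higher and none lower, and every overexpression library was above every knockout library for all 7, an order that 24.4% of all tested genes showed. G6pdx, its entry enzyme, went from 66.1 ± 1.77 to 137 ± 31.5 CPM (SD, n = 3 each) (log2 fold change 1.05 ± 0.18, edgeR adjusted p = 0.0025). Taldo1 and Tkt, of its non-oxidative arm, had log2 fold changes of 0.93 (adjusted p = 0.0107) and 0.88 (adjusted p = 0.0153, or 0.0506 without knockout replicate 3). On the epithelial scale the 3 values were -0.17, -0.29 and -0.34.

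Of the 12 genes of pyruvate entry into mitochondria, 3 rose and 1 fell on the scale of all RNA, and on the epithelial scale none was higher and 11 were lower. Pdk4, the pyruvate dehydrogenase kinase of fasting, fell by 3.25 ± 0.53 on the log2 scale (edgeR adjusted p = 0.00179). Pdk3, another kinase of the family, rose by 1.09 in log2 (adjusted p = 0.0027; -0.100 on the epithelial scale). Pdhb, a subunit of the dehydrogenase itself, rose by 0.63 in log2 (adjusted p = 0.0101, or 0.0563 without knockout replicate 2; -0.58 on the epithelial scale). Of 8 tested glycogen genes, 2 rose and 1 fell, with none higher and 8 lower on the epithelial scale. For both lists, the shares over all tested genes were 13.6% higher and 18.0% lower, with 75.6% lower on the epithelial scale. Pygl, the liver glycogen phosphorylase, had 212, 697 and 987 counts in the knockout libraries and 2, 4 and 6 in the overexpression libraries, and fell by 7.28 on the log2 scale (edgeR adjusted p = 8.47e-05). Pygb, the brain form, rose by 0.63 in log2 (adjusted p = 0.0195) and Pgm2 by 0.48 (adjusted p = 0.0415), with -0.59 and -0.72 on the epithelial scale. Without any one of the knockout replicates both calls were lost (adjusted p 0.0553 to 0.0732 for Pygb and 0.0740 to 0.162 for Pgm2), and that of Pgm2 also without overexpression replicate 3 (0.0918), with no filter (0.0576) and with upper-quartile scaling (0.0527).

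Of 19 tested other genes of glycolysis, 2 rose and 6 fell on the scale of all RNA, and 1 was higher and 15 were lower on the epithelial scale. The shares over all tested genes were 13.6% higher and 18.0% lower, with 75.6% lower on the epithelial scale. Slc2a10, a facilitative transporter, had 350, 359 and 561 counts in the knockout libraries and 0, 1 and 2 in the overexpression libraries, a ratio of 428 between the summed levels of the groups with an exact 95% interval of 146 to 2076, for counting error only. Its overexpression mean was 0.0281 CPM, or 0.0169 CPM without overexpression replicate 3. G6pc3, a glucose 6-phosphatase, fell by 3.76 ± 0.32 on the log2 scale (edgeR adjusted p = 4.05e-05). Fbp2, the muscle fructose bisphosphatase, had 2, 1 and 10 counts in the knockout libraries and 70, 39 and 46 in the overexpression libraries. Its log2 fold change was 3.57 (edgeR adjusted p = 0.00417), 2.34 on the epithelial scale, and 4.94 without knockout replicate 3, as the knockout mean dropped from 0.122 to 0.0458 CPM.

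Of 9 tested other genes of oxygen sensing, 2 rose and none fell on the scale of all RNA, and none was higher and 7 were lower on the epithelial scale. Siah2, a ubiquitin ligase that acts on prolyl hydroxylases, rose by 1.12 ± 0.18 in log2 (edgeR adjusted p = 0.00169) and Cited2, which competes with HIF for its coactivator, by 0.97 ± 0.198 (adjusted p = 0.00604), with -0.07 and -0.27 on the epithelial scale. Of 36 other hypoxia targets, 4 rose and 13 fell, a list median of -0.37 in log2, and none was higher and 34 were lower on the epithelial scale. Among all tested genes, 13.6% rose, 18.0% fell, and 75.6% were lower on the epithelial scale. Lox, which crosslinks collagen, had 6618, 10992 and 12496 counts in the knockout libraries and 66, 51 and 77 in the overexpression libraries and fell by 7.30 on the log2 scale (edgeR adjusted p = 1.56e-06). Loxl2, a related enzyme, fell by 6.66 (adjusted p = 1.56e-06), and Vldlr, a lipoprotein receptor, fell by 5.51 (adjusted p = 5.09e-05). These falls moved with those of the fibroblast markers, whose median was -7.65, and the part of those markers in them was not tested.

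**Figure D5:**
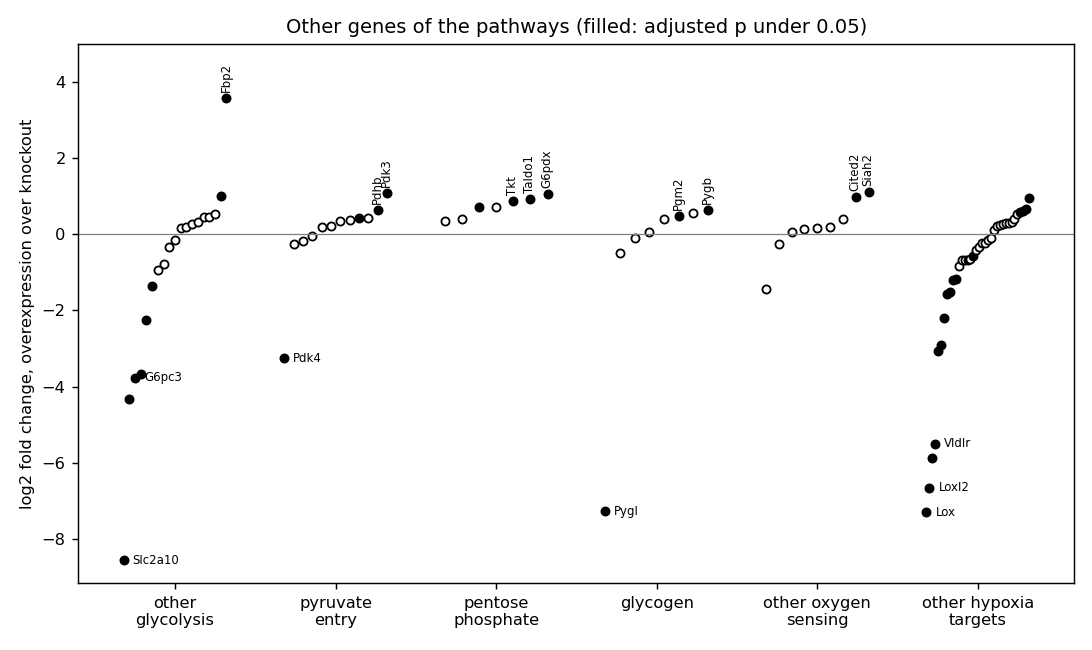
Log2 fold change, overexpression over knockout, of 91 tested other genes of the pathways by list, on the scale of all RNA, with filled points past the threshold and the named genes labelled. The pentose phosphate genes all lie above 0, while 13 of 36 other hypoxia targets fell, some by more than 5; on the epithelial scale the labelled rises lie below 0, Fbp2 excepted.

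Reads over Slc2a1, Hk1, Gpi1, Pfkm, Pfkp, Aldoa, Tpi1, Gapdh, Hif1a, Car9, Bnip3, Ankrd37 and Ndrg1 could be shared with a gene on the opposite strand, since exons overlap and the strand setting is not given in the sources used here. On the same strand, Pkm shares exons with Gm49759, Pfkm with Gm26513 and Hif1a with Gm49321, all with counts of their own in the table.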

How the data were processed

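A micro-scale column kit and a low-input library kit were used, per the labels' protocols. The authors deposited raw whole-number counts per gene. The submitters' processing notes name kallisto 0.44.0 and mm10 without a role. If the counts came from it they may be rounded estimates, with reads of near-identical genes split between them. Counting, annotation and strand setting are not given in the sources used here. Each column was matched to its sample by the label description.

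Of 55481 rows, 96 name no mouse gene (at most 2.23e-05% of a library) and were left out. Symbols (55144 IDs) and positions are from GENCODE M21 on GRCm38. Low genes were removed by filterByExpr (count 10, total 15), and counts were normalized with TMM and tested in 1 fit with edgeR 4.0.16 in R 4.3.3, with Benjamini-Hochberg adjustment over 18504 genes. A standard error is the log2 fold change divided by the square root of F. Near-identical copies aligned over at least 300 bases at 95% identity or more. The script was tested on simulated data. Alternatives were RLE, upper-quartile and epithelial scaling, no filter, the replicate number as a block, robust dispersion, DESeq2 1.42.0 and leaving out each library. The genes, lists, alternatives and the rule for names (all members, Sox2, and of each other pathway list up to 3 genes with the smallest p past the threshold) were chosen with earlier results of these data known. Other genes named were chosen after their values were seen.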

Additional observations from a re-analysis of the deposited data

Results flagged for a closer look

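The mCherry reporter, listed in the table as a sequence that is no mouse gene, had 8 counts in knockout replicate 3, 1 in knockout replicate 2 and 0 in the other libraries, and it is given here because no comparison above uses it.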

How the results depend on the processing

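Of the 22 members past the threshold, 18 passed in every fit that left out 1 library, the exceptions being Hk2, Eno1, Pkm and Epas1. Over those fits the members called higher numbered 13 to 17 and lower 5 to 7. The median log2 fold change of the members ran from 0.45 to 0.54. The other pathway genes called higher numbered 8 to 20 and lower 16 to 22. Over all tested genes those fits called 1446 to 2599 higher and 2784 to 3256 lower. RLE, upper-quartile scaling, no filter, robust dispersion, the block and the Wald test of DESeq2 left each of these counts within 1.5 times. Scaling to the epithelial list gave 1 member higher and 17 lower, 1 other pathway gene higher and 77 lower, and a member median of -0.75. Calls over all genes went from 2519 higher and 3329 lower to 327 higher and 13980 lower.

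With that scaling the log2 fold change turned negative for Slc2a1 (-0.22), Hk1 (-1.04), Pfkl (-0.13), Pfkp (-0.88), Aldoa (-0.16), Tpi1 (-0.32), Gapdh (-0.18), Pgk1 (-0.25), Pgam1 (-0.72), Eno1 (-0.35), Pkm (-0.44), Ldha (-0.35), Ldhb (-0.79), Epas1 (-0.53), Egln1 (-0.53), Egln3 (-0.96), Ddit4 (-1.19) and Ndrg1 (-0.11), and for Pdk3 (-0.100), Pdhb (-0.58), G6pdx (-0.17), Taldo1 (-0.29), Tkt (-0.34), Pygb (-0.59), Pgm2 (-0.72), Siah2 (-0.075) and Cited2 (-0.27). The reversal follows from the scaling, which lowers all log2 fold changes by about the same amount. Near 0, Pfkfb3 was 0.026 with no filter, 3.8e-05 with DESeq2 and -0.50 to 0.23 over the fits without 1 library. Pfkfb4 ran from -0.50 to 0.068 over those fits. Car9 was 0.0036 with RLE and with DESeq2, 0.023 with no filter, 0.071 with the block and -0.30 to 0.37 without 1 library. Ddit4 was -0.044 with upper-quartile scaling and -0.10 to 0.11 without 1 library. None of these last 4 genes passed the test in those fits.

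Same-numbered libraries did not deviate together (correlations 0.0552, 0.0728 and -0.0480), and knockout replicate 2 correlated best with overexpression replicate 3 (0.0797). These values give no sign of pairing by number, but as deviations from means of 3 libraries they cannot exclude it. With the replicate block 16 members were higher and 6 lower, as without it, and 5593 genes were called in place of 5848. Of the 17 other named pathway genes, Pgm2 lost its call under the block (adjusted p = 0.0569), with no filter (0.0576) and with upper-quartile scaling (0.0527), and the others kept theirs in those fits. With 3 libraries a group, genes with few counts, such as Car9 at 13 to 42 in a library, are read with wide counting error.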
